A study of Homo sapiens with 4 samples.

Results

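The heat shock chaperones described here were 10 genes chosen by symbol, namely HSPA1A, HSPA1B, HSPA8, HSP90AA1, HSP90AB1, HSPH1, DNAJB1, HSPB1, BAG3 and HSPD1. They were 10 of the 27685 genes in the deposited transcript tables, each gene being the sum of its RefSeq transcripts, and all 10 passed the filter on low counts that left 14868 genes for testing. RNA-seq was performed on HT-29, a line derived from a human colorectal adenocarcinoma, carrying either a control vector or Myc-TRIM40. TRIM40 is a RING-type E3 ubiquitin ligase, and in the study it was delivered with an N-terminal Myc tag by retroviral transduction and puromycin selection, without any added heat, drug or cytokine in the labels. Each of 2 independent experiments gave 1 control vector library and 1 Myc-TRIM40 library, so there were 2 libraries per condition and 4 in all. The sources used here do not say whether the cells of a condition came from 1 clone or a pool. The question for these genes was whether their RNA differed between cells with and without ectopic TRIM40.

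Heat shock chaperones bind unfolded or partly folded proteins, prevent their aggregation and help them refold or pass to degradation. HSP70 works in a cycle of ATP binding and hydrolysis that J-domain proteins start and nucleotide exchange factors end, HSP90 takes over clients at later stages of folding, small heat shock proteins hold unfolded clients without ATP, and HSP60 folds proteins inside mitochondria. Many of these genes are induced by HSF1, which binds repeats of the pentamer NGAAN in their promoters when unfolded proteins accumulate, while several members are also made at high levels in unstressed and cancer cells.

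Matches to such repeats in the members' promoters are shown first, as the sequence through which HSF1 is known to act. The letters GAANNTTCNNGAA were searched on both strands, the other strand reading TTCNNGAANNTTC, from 250 bases before to 50 after each start in the RefSeq promoters of GRCh38.p14. This 13-base pattern was in the promoters of 4 of the 10 members, against 0.607% of 27167 genes. The shorter 8-base patterns GAANNTTC and TTCNNGAA, which every long match also contains, were in 8 of the 10 members, HSPH1 and BAG3 being the others, against 16.2% of genes. Among 12 other heat-inducible chaperones with a promoter in the table, 4 held the long pattern and 9 a short one, so the matches were not particular to the members. The 30-base stretches below are printed 5′ to 3′ on the strand of the gene, with the match in capitals.
HSPA8, chr11:123062345-123062374, minus strand, match 230 to 218 bases before the start: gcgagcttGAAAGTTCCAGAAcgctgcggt
HSPA8, chr11:123062170-123062199, minus strand, match 55 to 43 bases before the start: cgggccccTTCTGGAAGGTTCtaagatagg
HSP90AA1, chr14:102087111-102087140, minus strand, match 88 to 76 bases before the start: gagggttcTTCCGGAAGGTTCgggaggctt
HSP90AB1, chr6:44247770-44247799, plus strand, match 165 to 153 bases before the start: ggagcaggTTCTGGAAGATTCatgggctcc
HSP90AB1, chr6:44247823-44247852, plus strand, match 112 to 100 bases before the start: tgagattgTTCTGGAAGCTTCtggattctg
HSPD1, chr2:197500061-197500090, minus strand, match 245 to 228 bases before the start: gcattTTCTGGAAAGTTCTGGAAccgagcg
HSPA1A, chr6:31815426-31815455, plus strand, 8-base match 106 to 99 bases before the start: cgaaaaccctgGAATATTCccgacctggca
HSPA1B, chr6:31827622-31827651, plus strand, 8-base match 105 to 98 bases before the start: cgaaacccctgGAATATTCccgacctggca
DNAJB1, chr19:14518456-14518485, minus strand, 8-base match 77 to 70 bases before the start: cgggcggggcgGAAGGTTCtggagggggct
DNAJB1, chr19:14518426-14518455, minus strand, 8-base match 47 to 40 bases before the start: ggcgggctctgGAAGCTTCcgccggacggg
HSPB1, chr7:76302480-76302509, plus strand, 8-base match 182 to 175 bases before the start: ccttaacgagaGAAGGTTCcagatgagggc
The 4 members with a long match, HSPA8, HSP90AA1, HSP90AB1 and HSPD1, were also the 4 with the highest FPKM. The 4 other heat-inducible chaperones with it ranged widely in mean FPKM, from DNAJA1 at 125 over SERPINH1 at 36.9 and CHORDC1 at 23.0 to HSPA6 at 0.16. A relation between match and level was not tested. In the windows shown for HSPA8 and HSPD1, all 250 bases before the start lay in annotated exons. These were exons of HSPA8 itself, and of HSPD1 and its neighbour HSPE1, and the windows of the other genes shown overlapped exons in part. A match is a description of the letters in these windows, and binding was not measured.

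The libraries held between 60954602 and 67424698 reads, of which the 10 chaperones took between 0.828% and 1.09%. TRIM40 had 0 reads in both control vector libraries and 272646 (experiment 1) and 110665 (experiment 2) with Myc-TRIM40, which relative to library size was at least 88504-fold and 36560-fold higher when 3 reads are taken as the floor of each control library. Of 10 colon epithelial markers, 9 were at 1 FPKM or more in every library, CDX1 being the exception. Of 10 markers of leukocytes, fibroblasts and endothelium, 9 were under 1 FPKM in every library, with CD14 at 1.43 to 2.62 FPKM, and CD3E, COL1A2, COL3A1, DCN and CDH5 had 0 reads.

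In the levels, HSPA8 stood highest with a mean of 1065 FPKM over the 4 libraries, which ranked 64 among all genes, and BAG3 stood lowest with 20.3 FPKM. FPKM expresses reads relative to transcript length and to the size of the library, and allows levels to be compared between genes. Between these came HSP90AB1 (819 FPKM), HSPD1 (721), HSP90AA1 (392), HSPB1 (149.5), HSPA1B (149.4), HSPA1A (141), HSPH1 (69.7) and DNAJB1 (40.7). Neighbours in this order whose ranges over the 4 libraries overlapped were HSP90AB1 and HSPD1, HSPB1 and HSPA1B, and HSPA1B and HSPA1A. The other neighbours did not overlap in any library.

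**Figure D1:**
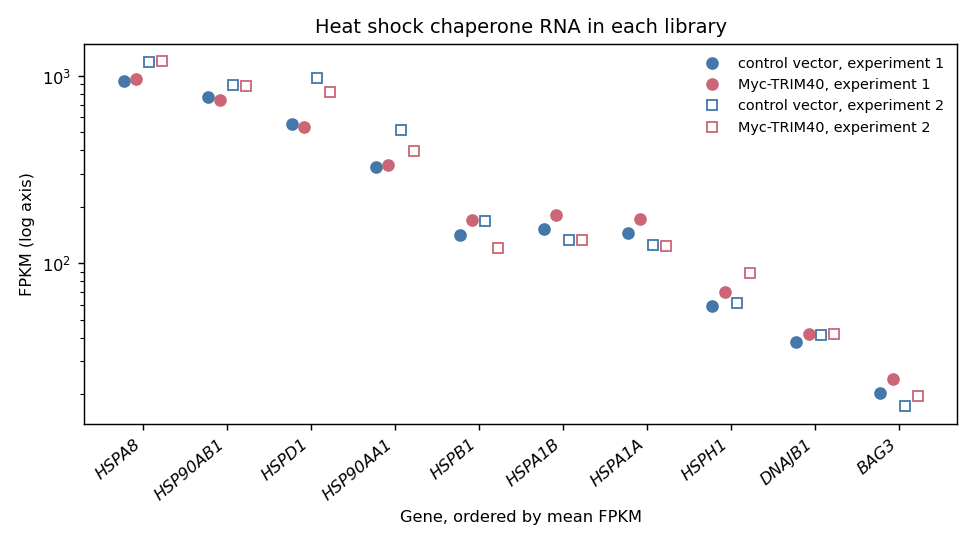
FPKM of each of the 10 chaperones (vertical log axis) in each of the 4 libraries, genes ordered by mean FPKM. Filled circles are experiment 1, open squares experiment 2, blue the control vector and red Myc-TRIM40. For HSPD1 the step from experiment 1 to experiment 2 is larger than the step between conditions. On this scale HSPH1 and, by a narrow margin, DNAJB1 have both red points above both blue points. How many of all genes show that order in FPKM was not computed.

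None of the 10 chaperones passed the test. With edgeR's quasi-likelihood test, the experiment as a block and Benjamini-Hochberg adjustment over 14868 genes, 0 members had an adjusted p under 0.05, beside 0.0605% of all genes tested (0.0404% higher and 0.0202% lower with Myc-TRIM40), and 0 had an unadjusted p under 0.05, beside 4.54%. DESeq2 likewise called 0 members, beside 0.363% of all genes, and gave 0 an unadjusted p under 0.05, beside 3.65%. The median log2 fold change of the members, Myc-TRIM40 over control vector, was -0.02, and that of all genes tested was 0.04, with 5 members above 0 and 5 below, where 45.1% of all genes were below. The 95% intervals of all 10 fold changes lay between 0.583-fold and 1.72-fold, hence within 2-fold in either direction, as did those of 70.6% of all genes, and 5 lay within 1.5-fold, as did 17.8% of genes. In bulk RNA, fewer cells that express a gene and less of its RNA per cell cannot be told apart.

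**Figure D2:**
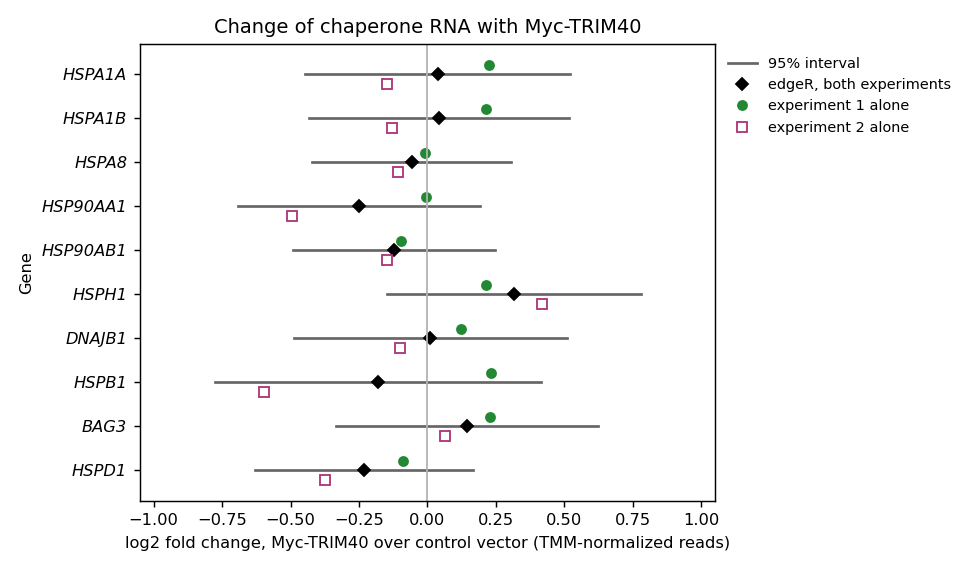
Log2 fold change, Myc-TRIM40 over control vector, of each chaperone on TMM-normalized reads. Diamonds are the edgeR estimates from both experiments with their 95% intervals as bars, and green circles and open squares are the ratios of experiments 1 and 2 alone; every bar crosses 0, and HSPB1, HSPA1A, HSPA1B and DNAJB1 have circles and squares on opposite sides of 0.

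HSPA1A and HSPA1B, which encode the stress-inducible cytosolic HSP70, differed little between conditions and in opposite directions in the 2 experiments. HSPA1A (Entrez gene 3303, hg19 chromosome 6 from 31783291 to 31785719) was at 144.1 FPKM with the control vector and 172.5 FPKM with Myc-TRIM40 in experiment 1, and at 125.0 and 122.9 FPKM in experiment 2. HSPA1B (Entrez gene 3304, chromosome 6 from 31795512 to 31798031) was at 151.8 and 180.3 FPKM in experiment 1 and at 132.9 and 132.7 FPKM in experiment 2. For both genes the Myc-TRIM40 library was the highest of the 4 in experiment 1 and the lowest in experiment 2, so the conditions overlapped. On read counts scaled to the TMM-corrected library size (CPM), the log2 ratio of HSPA1A was 0.22 in experiment 1 and -0.15 in experiment 2, and the edgeR log2 fold change was 0.04 (SE 0.21, 95% interval -0.45 to 0.52). For HSPA1B these ratios were 0.21 and -0.13, with a log2 fold change of 0.04 (SE 0.21).

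The copies cannot be read separately with confidence. In the leading transcript of HSPA1B, 72.7% of the 100-base windows also occur in a transcript of another gene, 68.8% in HSPA1A itself, and in HSPA1A 69.9% of windows are shared. The ratio of HSPA1A to HSPA1B in FPKM stayed between 0.926 and 0.957 in the 4 libraries. In experiment 1 the reads of the pair summed to 45832 with the control vector and 54763 with Myc-TRIM40, and in experiment 2 these sums were 44309 and 40626. The log2 fold change of the sum was 0.04 (SE 0.20, 95% interval -0.41 to 0.49, edgeR quasi-likelihood test, Benjamini-Hochberg adjusted p = 0.978), so treating the pair as 1 gene left the estimate where it was.

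HSPA8, the constitutive cytosolic HSP70 that also uncoats clathrin-coated vesicles, was the most abundant member. HSPA8 (Entrez gene 3312, chromosome 11 from 122928200 to 122933043) was at 937.7 FPKM with the control vector and 954.8 FPKM with Myc-TRIM40 in experiment 1, and at 1176.7 and 1192.0 FPKM in experiment 2. The libraries of experiment 2 were both above those of experiment 1, and within each experiment the conditions lay close together. Its log2 fold change on reads was -0.06 (SE 0.16, 95% interval -0.42 to 0.31), and on log2(FPKM + 1) in limma it was 0.02, so its sign depended on the scaling. The summed FPKM of HSPA1A and HSPA1B was also set over that of HSPA8 in the same library. This ratio was 0.316 and 0.370 in experiment 1 and 0.219 and 0.214 in experiment 2, control vector first. Both libraries of experiment 1 were above both of experiment 2. With Myc-TRIM40 the ratio was higher in experiment 1 and slightly lower in experiment 2.

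DNAJB1, the J-domain protein of the HSP40 family that delivers clients to HSP70, had the log2 fold change nearest to 0. DNAJB1 (Entrez gene 3337, chromosome 19 from 14625576 to 14640134) was at 37.8 and 42.1 FPKM in experiment 1 and at 41.1 and 41.9 FPKM in experiment 2, control vector first. Its log2 fold change was 0.01 (SE 0.22, 95% interval -0.49 to 0.51), and the ratios of the experiments on CPM were 0.12 and -0.10. In FPKM, which carries no TMM correction, both Myc-TRIM40 libraries were slightly above both controls, whereas in CPM they overlapped. The share of all genes with that order was computed in CPM only. The median log2 ratio of all genes tested was 0.025 and 0.076 on FPKM + 1, and 0.001 and 0.028 in CPM, experiment 1 first.

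HSPH1 was the member with the highest log2 fold change and the only one with both Myc-TRIM40 libraries above both control vector libraries in CPM, an order that 11.0% of all genes tested showed. None had both below both, an order shown by 9.67% of genes. HSPH1 encodes HSP110, a nucleotide exchange factor that releases ADP from HSP70 and takes part in dissolving aggregates. HSPH1 (Entrez gene 10808, chromosome 13 from 31709111 to 31736525) had 59.2 FPKM with the control vector and 69.9 FPKM with Myc-TRIM40 in experiment 1, and 61.3 and 88.3 FPKM in experiment 2. Its log2 fold change was 0.32 (SE 0.20, 95% interval -0.15 to 0.78), a fold of 1.25 with an interval from 0.903 to 1.72, and the ratios of the experiments were 0.21 and 0.42. The unadjusted p was 0.156 and the Benjamini-Hochberg adjusted p of edgeR's quasi-likelihood test was 0.888. With 2 libraries against 2, an exact permutation test that ignores the experiments cannot go below a two-sided p of 0.333. Swapping labels only within an experiment allows fewer arrangements and has a higher floor. HSPH1 over HSPA8, a ratio that cancels the library scale, was 0.0632 and 0.0732 in experiment 1 and 0.0521 and 0.0741 in experiment 2.

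The reads of HSPH1 were spread over 5 RefSeq transcripts, and their split differed more between libraries than their sum. NM_006644 held 43.9% and 55.4% of the HSPH1 reads in experiment 1 and 25.2% and 57.9% in experiment 2, control vector first. NM_001349704 held 26.1% and 21.6% in experiment 1 and 40.1% and 20.1% in experiment 2. Both Myc-TRIM40 libraries therefore had a larger share of NM_006644 and a smaller share of NM_001349704 than either control library. NM_001286505 was also lower in share, at 8.43% and 2.87% in experiment 1 and 3.35% and 2.87% in experiment 2. Shares within 1 gene are not independent, since a larger share of 1 transcript lowers those of the others. In reads, NM_001286505 had 1633 and 663 in experiment 1 but 741 and 858 in experiment 2, control vector first. NM_001349704 had 5052 and 4998 reads in experiment 1 and 8886 and 6006 in experiment 2. For NM_001286503 and NM_001286504 the conditions overlapped. How many transcripts of all genes show such an order with 2 libraries per condition was not computed, so these splits have no background beside them. With only the most abundant transcript of each gene, the log2 fold change of HSPH1 was 1.10 at an unadjusted p under 0.05, and no adjusted p of HSPH1 under any alternative was below 0.804 (edgeR, DESeq2 or limma, Benjamini-Hochberg). Transcripts of 1 gene share exons, and how reads were divided among them was estimated by the authors' pipeline.

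**Figure D3:**
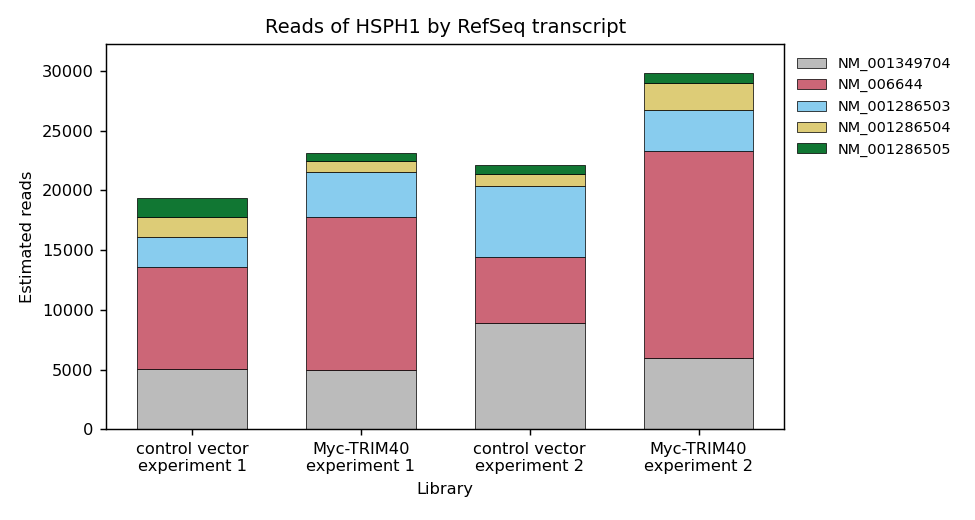
Estimated reads of HSPH1 (vertical axis, reads) in each of the 4 libraries, stacked by RefSeq transcript. The bars of the control vector reach 19382 (experiment 1) and 22138 reads (experiment 2), those of Myc-TRIM40 reach 23091 and 29869 reads, and the red segment, NM_006644, runs from 5574 to 17307 reads.

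BAG3, a co-chaperone that binds HSP70 through its BAG domain and directs clients to autophagy, was the least abundant member. BAG3 (Entrez gene 9531, chromosome 10 from 121410882 to 121437329) was at 20.2 FPKM with the control vector and 24.2 FPKM with Myc-TRIM40 in experiment 1, and at 17.2 and 19.6 FPKM in experiment 2. Within each experiment the Myc-TRIM40 library was higher, but that of experiment 2 was below the control library of experiment 1. Its log2 fold change was 0.15 (SE 0.21, 95% interval -0.33 to 0.62).

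HSP90AA1 and HSP90AB1, the stress-inducible and the constitutive cytosolic HSP90, had negative log2 fold changes with intervals that included 0. HSP90AA1 (Entrez gene 3320, chromosome 14 from 102547075 to 102606086) was at 325.2 and 332.2 FPKM in experiment 1 and at 513.0 and 398.2 FPKM in experiment 2, control vector first. The control library of experiment 2 stood above the other 3, and the log2 ratio on CPM was -0.01 in experiment 1 and -0.50 in experiment 2. The edgeR log2 fold change was -0.25 (SE 0.19, 95% interval -0.69 to 0.19). HSP90AB1 (Entrez gene 3326, chromosome 6 from 44213903 to 44221625) was at 769.0 and 737.0 FPKM in experiment 1 and at 891.5 and 878.5 FPKM in experiment 2, with a log2 fold change of -0.12 (SE 0.16, 95% interval -0.49 to 0.25). HSP90AA1 over HSP90AB1 was 0.423 and 0.451 in experiment 1 and 0.575 and 0.453 in experiment 2, so 3 libraries lay close together and the control library of experiment 2 was apart.

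HSPB1, the small heat shock protein HSP27, which also binds actin, gave the widest split between the experiments. HSPB1 (Entrez gene 3315, chromosome 7 from 75931875 to 75933614) was at 140.7 FPKM with the control vector and 169.3 FPKM with Myc-TRIM40 in experiment 1, and at 167.2 and 120.7 FPKM in experiment 2. The Myc-TRIM40 libraries were thus the highest and the lowest of the 4. The log2 ratio on CPM was 0.23 in experiment 1 and -0.60 in experiment 2, a fold of 0.662 in the latter and the only ratio of at least 1.5-fold among the members in either experiment. Of all genes tested, 25.4% had such a ratio in experiment 2 and 13.3% in experiment 1. The edgeR log2 fold change of HSPB1 was -0.18 (SE 0.26, 95% interval -0.78 to 0.41).

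HSPD1, the HSP60 chaperonin of mitochondria, had the largest difference between the control libraries of all members. HSPD1 (Entrez gene 3329, chromosome 2 from 198351308 to 198364998) was at 553.4 and 532.9 FPKM in experiment 1 and at 975.0 and 820.8 FPKM in experiment 2, control vector first. The Myc-TRIM40 library was lower in each experiment, and both libraries of experiment 2 were above both of experiment 1. Its log2 fold change was -0.23 (SE 0.17, 95% interval -0.63 to 0.17). The gene overlaps HSPE1, HSPE1-MOB4 and SNORA105B in the files, and the strand setting of the read counting is not given in the sources used here, so reads at the shared positions may have been split among them. HSPE1 encodes HSP10, the lid of the HSP60 chamber, and was at 252.5 and 242.3 FPKM in experiment 1 and at 583.7 and 390.8 FPKM in experiment 2, with a log2 fold change of -0.40 (SE 0.23). HSPD1 over HSPE1 in FPKM was lowest in the control library of experiment 2, at 1.67, and highest in the Myc-TRIM40 library of experiment 1, at 2.20.

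The experiments themselves differed. From the control library of experiment 1 to that of experiment 2, the CPM of HSPD1 was 1.87-fold and that of HSP90AA1 1.69-fold higher, the only members at 1.5-fold or more, beside 44.9% of all genes tested. HSPA1A, HSPA1B and BAG3 were slightly lower, at 0.921-fold, 0.931-fold and 0.906-fold. In 8 of the 10 members this difference between control libraries was larger than the log2 fold change between conditions, HSPH1 and BAG3 being the exceptions, and the same held for 78.9% of all genes. Within experiments, 6 members had a CPM ratio above 1 in experiment 1 (50.2% of all genes) and 2 in experiment 2 (52.0%). HSPH1 and BAG3 were above 1 in both (28.6% of all genes), 4 were below 1 in both (26.3%) and 4 went opposite ways (45.0%). These counts depended on the scale. On FPKM + 1, 8 members were above 1 in experiment 1 and 4 in experiment 2, beside 8446 and 9171 of the 14868 genes tested. The median log2 CPM ratio of the members was 0.17 in experiment 1 and -0.14 in experiment 2, while that of all genes tested was 0.00 and 0.03.

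The wider chaperone network was described with 4 lists of 54 genes in all, of which 53 were tested. No gene of these lists passed edgeR's or DESeq2's test after Benjamini-Hochberg adjustment, the lowest adjusted p in edgeR being 0.888. Each tool gave 1 of the 53 an unadjusted p under 0.05, beside 4.54% (edgeR) and 3.65% (DESeq2) of all genes tested. Among 15 other heat-inducible chaperones, 14 were tested, CRYAB having at most 10 reads in a library, and their median log2 fold change was 0.03, with 9 above 0 and 5 below. The ends of that list were HSPB8 at 1.00 (SE 0.70) and HSPA6 at 0.29 above, and HSPE1 at -0.40 and CACYBP at -0.31 below. HSPB8, a small heat shock protein that works with BAG3, had 14, 60, 21 and 20 reads, given as control vector then Myc-TRIM40 in experiment 1 and then in experiment 2, so the Myc-TRIM40 library of experiment 1 stood above the other 3. HSPA6, an HSP70 that is nearly silent without stress, had 12, 37, 34 and 18 reads in the same order, or 0.0780 to 0.247 FPKM.

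Of 21 partners of HSP70 and HSP90, all tested, 5 had a log2 fold change above 0 and 16 below, with a median of -0.06. ST13, which binds HSP70 in its ADP state, was the gene with an unadjusted p under 0.05. ST13 was at 52.7 and 40.7 FPKM in experiment 1 and at 67.3 and 41.5 FPKM in experiment 2, control vector first, so both Myc-TRIM40 libraries were below both controls. The order was the same in CPM, where 9.67% of all genes tested showed it. Of the 53 tested genes of the 4 lists, 4 had this order and 2 had the reverse, which 11.0% of all genes showed. Its log2 fold change was -0.62 (SE 0.22, 95% interval -1.13 to -0.10), with an unadjusted p of 0.0241 and a Benjamini-Hochberg adjusted p of 0.888 in edgeR. The other ends of this list were BAG1, an HSP70 exchange factor, at -0.40, BAG6 at 0.19 and HSPA2 at 0.18.

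All 14 genes of the cytosolic chaperonin TRiC, which folds actin and tubulin, and of prefoldin, which hands it these clients, had log2 fold changes below 0, from -0.39 (PFDN5) to -0.15 (CCT3), and 0 passed the test. Over all genes tested 45.1% were below 0. VBP1 at -0.32 and CCT5 at -0.16 were next to these ends. The 14 genes were read in the same 4 libraries, so they are not independent observations. In all 14 the difference between control libraries was larger than the log2 fold change, as in 78.9% of all genes. In CPM, 2 of the 14 were above 1 in experiment 1 (50.2% of all genes) and 0 in experiment 2 (52.0%). The median of this list on CPM was -0.08 in experiment 1 and -0.40 in experiment 2, and its genes were higher in the control library of experiment 2 than in that of experiment 1 by a median log2 difference of 0.69, so the larger ratio was in experiment 2, whose control library was also the higher one. The heat shock factors and the inhibitor HSBP1 numbered 4, all below 0, at -0.05 (HSF4), -0.06 (HSF1), -0.17 (HSF2) and -0.31 (HSBP1). HSF1, the main activator of these genes, was at 68.2 and 64.6 FPKM in experiment 1 and at 47.6 and 51.5 FPKM in experiment 2, again a larger step between experiments than between conditions.

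**Figure D4:**
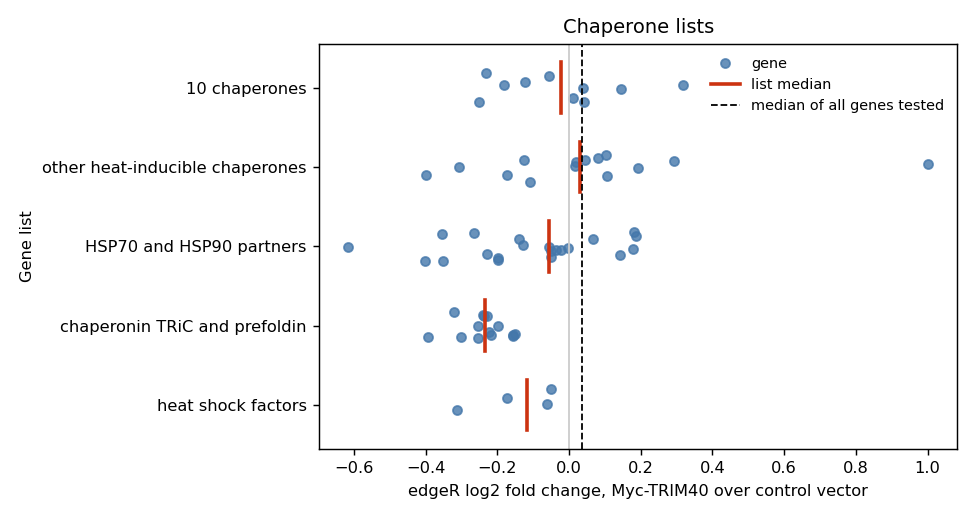
Log2 fold change, Myc-TRIM40 over control vector, from edgeR (horizontal axis) for each tested gene of the 10 chaperones and of the 4 lists, with the list median as a red bar. The dashed line is the median of all genes tested, 0.04; points are scattered vertically only to separate them, and all 14 TRiC and prefoldin genes lie left of 0.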

How the data were processed

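RNA-seq of HT-29 cells with a control vector or Myc-TRIM40 was analysed, 2 libraries per condition. The submitters' processing notes name HISAT2 2.1.0, StringTie 1.3.4d and hg19, without their roles, and the study's methods give a TruSeq Stranded mRNA kit. For each RefSeq transcript the authors deposited a read count, given as whole numbers and not normalized. They also deposited FPKM, which adjusts that count for transcript length and library size, and, in experiment 2, TPM, in which FPKM is rescaled to a fixed sum. The other deposited values used were transcript lengths. TPM of experiment 1 was computed here from the deposited FPKM.

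Transcripts were summed per gene (63714 transcripts, 27685 genes). Counts were tested with edgeR 4.0.16 in R 4.3.3 (glmQLFit, glmQLFTest, TMM, filterByExpr), with the experiment as a block and Benjamini-Hochberg adjustment at 0.05. Same-numbered libraries came from 1 independent experiment each, stored in 1 file, and their deviations from the group means correlated at 0.449. The fit had a common dispersion of 0.0484, a residual of 1 degree of freedom and a prior of 7.44. Intervals cover 95% and come from the fit. Ratios of Myc-TRIM40 to control vector within an experiment were taken on CPM unless FPKM + 1 or TPM is named. The alternatives with another pseudocount, TPM or centring were set against log2 ratios of FPKM + 1. Whether the experiments were separate cultures or transductions is not stated beyond their independence, so p-values measure the spread between these libraries. On simulated counts for this comparison (14721 genes, dispersion 0.05), edgeR found 107 of 116 genes changed 4-fold and 20 of 84 changed 2-fold, with 7 unchanged genes called.

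Alternatives were no block, DESeq2 1.42.0, upper-quartile normalization, no filter, limma 3.58.1 on log2(FPKM + 1), HSPA1A and HSPA1B summed, the most abundant transcript only, and, for the values per experiment, a pseudocount of 0.1, TPM and centring on genes averaging 1 FPKM or more. Promoters came from the RefSeq table of GRCh38.p14, matched by symbol for 10 of 10 members, and shared 100-base windows from GENCODE transcripts. Python 3.11.15 with pandas 2.3.3 and numpy 2.4.6 was used elsewhere. The members and the gene lists were chosen with earlier results of these data known. Named genes were the 10 members, TRIM40, HSF1, HSPE1 and, from each list, any gene that passed and otherwise the 2 highest and 2 lowest tested. CRYAB and the cell markers given by name were added after their values were seen.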

Additional observations from a re-analysis of the deposited data

How the results depend on the processing

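No chaperone passed the threshold in any of the 8 fits across genes, 1 (HSPH1, most abundant transcript only) had an unadjusted p under 0.05, and the adjusted p of the members ranged from 0.804 to 1 over the 68 alternative values. In 65 of these the direction was that of the reported value. The exceptions were HSPA8, at 0.0223 with limma on log2(FPKM + 1), and DNAJB1, at -0.0158 with DESeq2 size factors and -0.0007 with upper-quartile normalization, all near 0. The number of genes called over the whole table was less stable. It was 9 as reported, 0 without the replicate block, 54 with DESeq2, 7 with upper-quartile normalization, 0 without the filter, 3 with limma and 0 with the most abundant transcript only, and the cause was not tested. At an unadjusted p under 0.05 those with 0 calls gave 153 genes without the block, 447 without the filter and 335 with the most abundant transcript. The block changed no call among the chaperones or the 4 lists. The median log2 fold change of the members lay between -0.06 and 0.05 across the fits, and was -0.14 without replicate 1 and 0.17 without replicate 2, where 1 library per condition allows no test. In experiment 2 the median log2 ratio of the members was -0.01 on FPKM + 1 and 0.22 on TPM, a scale on which the median of expressed genes also went from 0.10 to 0.33, so relative to that median the members were lower on both scales. In the simulated counts, whose changed genes were drawn from all genes that passed the filter, edgeR found 20 of 84 genes changed 2-fold. At 2 libraries per condition, a change of that size in a single gene would therefore often miss the adjusted threshold. For the 10 chaperones, the 95% intervals of the main fit all lay within 2-fold.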
